A study of Mus musculus with 12 samples.

Results

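The regulatory windows of 5 myogenic factor genes, Myod1, Myf5, Myf6, Myog and Mef2c, were examined for chromatin accessibility in mouse embryonic stem cells (mESCs) and mouse embryonic fibroblasts (MEFs). A window was the annotated gene body extended by 50 kb on either side. Every peak of the deposited count tables that overlapped a window was taken as a member, with no further filter on signal. This gave 22 of 91354 peaks in the BGI peak set and 20 of 87027 in the Illumina peak set. The study built each platform's set from peaks that were reproducible in MEFs or in mESCs. A peak could thus enter through the cell type where it was higher. Calls, group separation and missing summits partly follow from this selection, for members as for all peaks. On BGI, 6 member peaks lay in the Myod1 window, 9 in the Myog window and 5 in the Mef2c window, and the overlapping windows of Myf5 and Myf6 held the same 2 peaks. The assay was Omni-ATAC-seq, whose Tn5 transposase cuts open DNA and tags it with sequencing adapters. MEFs were sorted as THY1+ cells and mESCs as THY1-/SSEA1+/EPCAM+ cells, all of C57/Bl6 background and with no treatment named in the labels. There were 6 libraries, MEF 1, 2 and 4 and mESC 1, 3 and 5, which the study describes as biological replicates. Each library was read on a BGI DNBSEQ-G400, a DNA nanoball instrument, and on an Illumina HiSeqX10, giving 12 samples in 4 groups of 3. Values below are CPM, a peak's reads scaled to the sample's total reads in the peak set, on BGI unless Illumina is named, and differences are log2 fold changes of mESC over MEF with their standard error (SE) from the quasi-likelihood F test of edgeR, adjusted over all peaks by Benjamini-Hochberg.

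Myod1, Myf5, Myf6 and Myog encode the basic helix-loop-helix factors of the skeletal muscle lineage. They bind E-boxes as dimers with E proteins. Myf5 and Myod1 act in the commitment of myoblasts, Myog in their differentiation, and Myf6 in both phases. Mef2c encodes a MADS-box factor that cooperates with them at muscle genes and also acts in heart, endothelium and neurons. Neither mESCs nor fibroblasts are muscle cells, and the question here was which elements around these genes were open in either cell type.

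Of the 22 member peaks on BGI, 13 were more accessible in mESCs (59.1%, against 40.9% of all 91354 peaks tested) and 6 were less accessible (27.3%, against 43.2%). On Illumina, 10 of 20 were more accessible in mESCs (50%, against 42.1% of all peaks) and 7 were less accessible (35%, against 42.4%). At a log2 fold change of at least 1, the Illumina share higher in mESCs no longer exceeded that of all peaks (26795 of 87027). No share of member peaks was tested against that of all peaks. The median log2 fold change of the member peaks was 0.78 on BGI and 0.41 on Illumina, where the median over all peaks was -0.08 and -0.03. Of the peaks within 1 kb of a member's start or inside its gene body, 4 of 7 on BGI were higher in mESCs and 3 lower (median 0.64). On Illumina 3 of 8 such peaks were higher and 5 lower (median -1.73). All 6 peaks of the Myod1 window and both peaks of the Myf5 and Myf6 windows were higher in mESCs, the Myog window was mixed, and 3 of the 5 Mef2c peaks were higher in MEFs. MEF and mESC samples did not overlap in CPM at 20 of the 22 BGI peaks and 16 of the 20 Illumina peaks, where 85.1% and 85.6% of all peaks did not. In bulk samples a smaller share of cells with an open site and a smaller opening per cell cannot be told apart.

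Sequences of the peaks that the results turn on are shown first, as the 300 bases around the centre of the peak on the plus strand of GRCm38.p6. The first set shows peaks at the genes themselves, with each CpG in capitals. The Myod1 peak and the MEF-biased Mef2c promoter peak are CpG-rich (26 and 24 CpG), the Mef2c intron peak holds 11, and the Myf6 peak holds 4.
Myod1 promoter, chr7:46377068-46377367: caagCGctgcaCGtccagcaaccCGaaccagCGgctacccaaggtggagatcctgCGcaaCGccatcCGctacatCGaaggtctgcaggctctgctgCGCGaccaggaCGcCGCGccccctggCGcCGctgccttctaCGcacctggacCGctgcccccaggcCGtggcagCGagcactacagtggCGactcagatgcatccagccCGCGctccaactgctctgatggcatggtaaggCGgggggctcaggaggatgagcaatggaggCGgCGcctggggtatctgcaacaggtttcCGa
Myf6 promoter, chr10:107493547-107493846: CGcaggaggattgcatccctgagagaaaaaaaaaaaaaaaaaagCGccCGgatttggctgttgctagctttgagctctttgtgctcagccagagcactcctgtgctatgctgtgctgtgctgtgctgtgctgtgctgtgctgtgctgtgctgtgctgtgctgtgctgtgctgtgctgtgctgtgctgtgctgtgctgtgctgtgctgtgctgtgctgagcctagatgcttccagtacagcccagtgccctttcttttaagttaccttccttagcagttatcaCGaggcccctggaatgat
Mef2c internal promoter, chr13:83523670-83523969: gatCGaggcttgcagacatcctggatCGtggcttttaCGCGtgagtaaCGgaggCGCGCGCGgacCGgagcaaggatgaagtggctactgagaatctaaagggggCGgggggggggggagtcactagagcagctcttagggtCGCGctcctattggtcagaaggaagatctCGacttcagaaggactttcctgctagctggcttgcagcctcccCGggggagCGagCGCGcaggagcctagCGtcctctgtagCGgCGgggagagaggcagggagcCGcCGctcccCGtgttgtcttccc
Mef2c intron, chr13:83518340-83518639: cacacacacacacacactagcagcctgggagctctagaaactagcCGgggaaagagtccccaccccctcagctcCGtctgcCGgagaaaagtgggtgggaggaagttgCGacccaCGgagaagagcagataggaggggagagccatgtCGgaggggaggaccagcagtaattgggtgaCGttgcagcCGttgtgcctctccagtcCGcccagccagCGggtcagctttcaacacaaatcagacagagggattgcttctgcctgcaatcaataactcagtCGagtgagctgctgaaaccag

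The second set shows the distal peaks with the lowest p-value in the Myod1, Myf5/Myf6 and Myog windows and a Mef2c intron peak of the Illumina set. Capitals mark matches on either strand to the letters CAGCTG (an E-box), TGACTCA (the AP-1 site), GGAATG (the TEAD core), ATGCAAAT (the octamer), TCAAGGTCA (an extended nuclear receptor half-site), AGNNGGCNC (part of the CTCF motif) or the MEF2 box.
Myod1 distal, chr7:46393120-46393419: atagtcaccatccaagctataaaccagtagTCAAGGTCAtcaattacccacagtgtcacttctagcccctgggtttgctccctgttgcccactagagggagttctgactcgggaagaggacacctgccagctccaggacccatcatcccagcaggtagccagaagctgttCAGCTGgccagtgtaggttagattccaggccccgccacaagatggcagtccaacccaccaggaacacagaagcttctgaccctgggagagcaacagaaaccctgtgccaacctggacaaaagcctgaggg
Myf5/Myf6 distal, chr10:107528812-107529111: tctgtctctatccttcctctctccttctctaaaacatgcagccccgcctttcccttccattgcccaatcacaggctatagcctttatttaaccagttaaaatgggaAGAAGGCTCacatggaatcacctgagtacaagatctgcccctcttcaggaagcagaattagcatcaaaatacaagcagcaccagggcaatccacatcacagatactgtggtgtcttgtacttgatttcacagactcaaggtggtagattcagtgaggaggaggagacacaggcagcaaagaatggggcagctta
Myog distal, chr1:134270062-134270361: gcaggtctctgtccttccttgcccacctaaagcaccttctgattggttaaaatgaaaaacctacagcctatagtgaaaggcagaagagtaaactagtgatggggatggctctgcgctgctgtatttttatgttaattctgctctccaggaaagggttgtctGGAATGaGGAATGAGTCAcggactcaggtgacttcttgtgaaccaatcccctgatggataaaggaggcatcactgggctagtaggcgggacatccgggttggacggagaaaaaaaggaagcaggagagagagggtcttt
Mef2c intron, Illumina set, chr13:83603919-83604218: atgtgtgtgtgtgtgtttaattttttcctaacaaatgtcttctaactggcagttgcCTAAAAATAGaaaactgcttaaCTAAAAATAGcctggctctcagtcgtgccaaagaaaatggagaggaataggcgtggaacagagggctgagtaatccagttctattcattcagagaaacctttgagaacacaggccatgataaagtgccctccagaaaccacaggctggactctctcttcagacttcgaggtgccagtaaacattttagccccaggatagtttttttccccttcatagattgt
These matches describe letters and not bound factors. Of all BGI peaks with a chromosome sequence, read over the whole peak of the same width, CAGCTG was in 29.4%, TGACTCA in 19.9%, GGAATG in 31.7%, ATGCAAAT in 3.21%, TCAAGGTCA in 1.42%, AGNNGGCNC in 33.3% and the MEF2 box in 0.914% (0.863% on Illumina). In the Myog distal peak the second GGAATG overlaps the reverse complement of TGACTCA. The Myf6 stretch carries a tandem repeat, 22 copies of a 5-base unit over 110 bases.

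**Figure D1:**
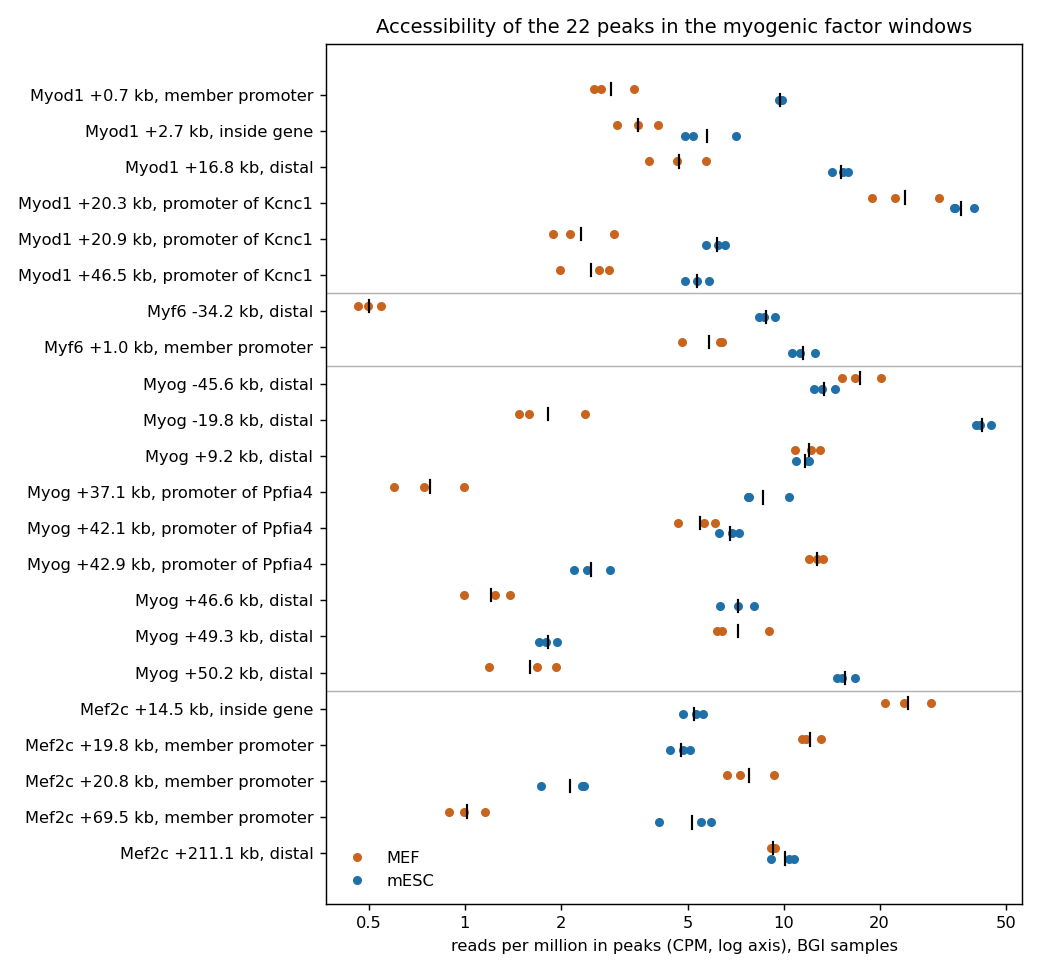
CPM (log axis) of the 22 member peaks in the 6 BGI samples; each point is 1 sample, black bars are group means, and peaks are named by window, distance of their midpoint from the gene start and class. The Myod1 and Myf6 rows have mESCs to the right, 3 of the 5 Mef2c rows have MEFs to the right, and the Myog row 19.8 kb upstream has the widest gap.

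Myod1 is the factor that can convert fibroblasts to muscle when introduced into them. Its gene lies at chr7:46376474-46379099 on the plus strand. The Myod1 promoter peak (chr7:46376968-46377469), centred 0.744 kb inside the gene over its coding exon, stood at 2.54, 2.68 and 3.39 CPM in MEFs 1, 2 and 4 and at 9.77, 9.87 and 9.69 CPM in mESCs 1, 3 and 5. All mESC samples lay above all MEF samples, and the mESC values were nearly equal. The difference was 1.70 on the log2 scale (SE 0.20, edgeR adjusted p = 3.91e-07). On Illumina the matching peak read 2.89, 3.92 and 3.40 CPM in MEFs and 9.19, 9.73 and 11.04 in mESCs, with a difference of 1.51 (SE 0.19, edgeR adjusted p = 1.04e-06). The peak was called in 6 of 6 MEF and 6 of 6 mESC samples, but it was on the reproducible lists of mESCs alone. In MEFs its mean CPM was above that of 26.8% of all peaks, and in mESCs above that of 62.6%.

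Downstream of Myod1 lies Kcnc1, which encodes a voltage-gated potassium channel. An intergenic peak 16.8 kb downstream of the Myod1 start (chr7:46393020-46393521), 2976 bp from the nearest Kcnc1 start site, had the lowest p-value of the window and holds TCAAGGTCA and 2 copies of CAGCTG over its whole width, 1 of them in the stretch printed above. It read 3.79, 4.62 and 5.73 CPM in MEFs and 15.3, 15.97 and 14.2 in mESCs, a difference of 1.62 (SE 0.18, edgeR adjusted p = 1.19e-07), with no overlap of the groups. On Illumina the difference was 1.34 (SE 0.19, edgeR adjusted p = 4.96e-06). The strongest peak of the window was at a Kcnc1 promoter (chr7:46396554-46397055) and held 60 CpG over its whole width, where the median of all peaks was 9. It read 19.0, 22.4 and 30.7 CPM in MEFs and 34.5, 39.6 and 34.2 in mESCs. The groups were close at their edges, and the difference was 0.53 (SE 0.14, edgeR adjusted p = 0.00176). The neighbouring Kcnc1 promoter peak (chr7:46397118-46397619), listed on BGI alone, was also higher in mESCs at 1.35 (SE 0.25, edgeR adjusted p = 7.45e-05). The other two peaks were at the 3′ end of Myod1 and at an internal Kcnc1 start, with differences of 0.64 (edgeR adjusted p = 0.0183) and 1.05 (edgeR adjusted p = 0.000906). The call at the 3′ end was lost without mESC 5 (0.48, edgeR adjusted p = 0.118). Summed over the window, CPM was 32.2, 38.5 and 49.1 in MEFs and 75.7, 83.1 and 76.2 in mESCs, and the Kcnc1 promoter gave the largest part of it in every sample.

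Myf5 and Myf6 lie next to each other on the minus strand, Myf5 at chr10:107482908-107486134 and Myf6 at chr10:107492853-107494737. No peak of either set lay within 1 kb of the Myf5 start. The Myf6 promoter peak (chr10:107493447-107493948), 789 bp inside the gene and over a coding exon, read 4.80, 6.31 and 6.42 CPM in MEFs and 10.6, 11.3 and 12.5 in mESCs. The mESC samples were all above the MEF samples, by 0.91 on the log2 scale (SE 0.17, edgeR adjusted p = 1.14e-04), and by 1.09 on Illumina (SE 0.18, edgeR adjusted p = 1.95e-05). The tandem repeat printed above lies in this peak, and its part in the counts was not tested.

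The other peak of these windows (chr10:107528712-107529213) lies in an intron of Ptprq, which encodes a receptor-type phosphatase, 34.2 kb upstream of Myf6. It read 0.462, 0.547 and 0.498 CPM in MEFs and 9.39, 8.40 and 8.70 in mESCs. In MEFs it was near the floor of the peak set, above 5.15% of all peaks, and no MEF sample had a called summit there. The difference was 4.05 (SE 0.28, edgeR adjusted p = 3.36e-10) on BGI and 3.86 (SE 0.27, edgeR adjusted p = 4.43e-10) on Illumina. The sum of the 2 peaks was 5.26, 6.86 and 6.92 CPM in MEFs and 19.99, 19.7 and 21.2 in mESCs.

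Myog lies at chr1:134289989-134292548 on the plus strand. No peak of either set lay within 1 kb of its start, and the 9 peaks of the window were all distal or at other genes. The peak 19.8 kb upstream (chr1:134269962-134270463, intergenic) had the largest difference among the member peaks. It read 1.48, 2.39 and 1.59 CPM in MEFs and 40.2, 44.6 and 41.2 in mESCs, that is 1.82 ± 0.494 against 42.0 ± 2.31 (SD, n = 3 each). In mESCs it ranked above 96.9% of all peaks. The difference was 4.46 (SE 0.16, edgeR adjusted p = 2.54e-13), and 4.30% of all peaks had a higher signed log2 fold change. On Illumina it read 1.54, 0.845 and 1.03 CPM in MEFs and 34.6, 42.1 and 35.4 in mESCs, a difference of 4.98 (SE 0.18, edgeR adjusted p = 2.42e-13). The BGI calls listed a summit there in 3 of 3 MEF samples and the Illumina calls in 0 of 3, while all 6 mESC samples had one.

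On the other side, 37 to 50 kb downstream, peaks of opposite direction alternated around Ppfia4, which encodes a liprin-family scaffold protein. A peak 50.2 kb downstream of the Myog start (chr1:134339982-134340483) read 1.94, 1.69 and 1.19 CPM in MEFs and 15.3, 16.7 and 14.7 in mESCs, a difference of 3.20 (SE 0.21, edgeR adjusted p = 2.14e-10). A Ppfia4 promoter peak 37.1 kb downstream (chr1:134326791-134327292) read 0.600, 0.994 and 0.747 CPM in MEFs and 7.75, 7.81 and 10.4 in mESCs, a difference of 3.40 (SE 0.28, edgeR adjusted p = 3.64e-09). In MEFs the first ranked above 20.2% and the second above 10.8% of all peaks. A summit was called at the first in 1 of 3 MEF samples on each platform and at the second in 0 of 3, and all 6 mESC samples had one at both. In contrast, the Ppfia4 promoter peak 42.9 kb downstream (chr1:134332683-134333184) read 13.3, 12.8 and 12.05 CPM in MEFs and 2.21, 2.42 and 2.86 in mESCs, a difference of -2.41 (SE 0.19, edgeR adjusted p = 2.26e-09). The peak 49.3 kb downstream (chr1:134339063-134339564) followed it at 6.42, 6.16 and 9.01 CPM in MEFs and 1.95, 1.71 and 1.80 in mESCs (-2.04, SE 0.25, edgeR adjusted p = 5.64e-07). Its centre is under 1 kb from that of the mESC-biased peak 50.2 kb downstream. Another MEF-biased peak, 45.6 kb upstream, differed by -0.44 (SE 0.14, edgeR adjusted p = 0.00709), with 15.3, 16.7 and 20.2 CPM in MEFs and 13.2, 14.5 and 12.5 in mESCs. That call was lost when library sizes were set to the down-sampled depths (-0.29, edgeR adjusted p = 0.0650). Of the remaining 3 peaks, 1 was higher in mESCs (46.6 kb downstream, 2.50) and 2 did not pass the threshold (9.21 and 42.1 kb downstream, -0.11 and 0.25).

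Mef2c is the long gene of the set, at chr13:83504034-83667080 on the plus strand, with 27 annotated start positions. Its strongest peak lay in an intron 14.5 kb from the most upstream start (chr13:83518240-83518741). It read 20.8, 23.9 and 29.1 CPM in MEFs and 4.85, 5.32 and 5.59 in mESCs, so every MEF sample was above every mESC sample. The difference was -2.29 (SE 0.15, edgeR adjusted p = 2.68e-10) on BGI and -2.24 (SE 0.14, edgeR adjusted p = 1.19e-10) on Illumina. In MEFs this peak ranked above 89.6% of all peaks and in mESCs above 32.6%.

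The promoter peaks of Mef2c went in both directions. The peak at chr13:83523570-83524071, 97 bp from an internal start, read 11.8, 13.1 and 11.5 CPM in MEFs and 4.41, 4.85 and 5.09 in mESCs (-1.40, SE 0.17, edgeR adjusted p = 5.46e-07). The next peak, over an internal 5′ exon (chr13:83524592-83525093), read 6.65, 7.31 and 9.36 CPM in MEFs and 2.33, 2.37 and 1.74 in mESCs (-1.91, SE 0.24, edgeR adjusted p = 7.74e-07). At a further internal promoter (chr13:83573254-83573755) the order was turned: 1.15, 0.895 and 0.996 CPM in MEFs against 5.93, 4.08 and 5.53 in mESCs (2.27, SE 0.30, edgeR adjusted p = 1.79e-06). This last peak was in the BGI set alone. Counted there, the Illumina samples read 1.05, 0.439 and 0.145 CPM in MEFs and 5.70, 3.74 and 2.77 in mESCs, with a difference of 2.81 (SE 0.47). The MEF-biased and mESC-biased start regions lie 19.8 and 69.5 kb from the most upstream start. A distal peak 211.1 kb from the start (9.29 ± 0.128 CPM in MEFs, 10.1 ± 0.857 in mESCs; SD, n = 3 each) did not pass the threshold at 0.05 (SE 0.16).

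Peaks of the Mef2c window listed on Illumina alone were both MEF-biased. The intron peak with 2 MEF2 box matches (chr13:83603819-83604320), singled out after its values were seen, read 6.996, 5.81 and 7.24 CPM in Illumina MEFs and 1.06, 0.649 and 1.36 in mESCs (-2.75, SE 0.29, edgeR adjusted p = 6.94e-08). The peak at chr13:83651844-83652345, within 1 kb of the most downstream Mef2c start, read 7.28, 7.05 and 5.86 CPM in MEFs and 1.25, 0.354 and 1.30 in mESCs (-2.85, SE 0.33, edgeR adjusted p = 2.99e-07). The BGI samples counted on the same peaks gave -2.54 (SE 0.26) and -3.17 (SE 0.38). The direction was the same in the samples of both platforms. Summed CPM of the Mef2c window was 49.8, 54.4 and 60.04 in BGI MEFs and 27.9, 27.4 and 27.1 in BGI mESCs, the reverse of the order in the windows of the other genes.

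**Figure D2:**
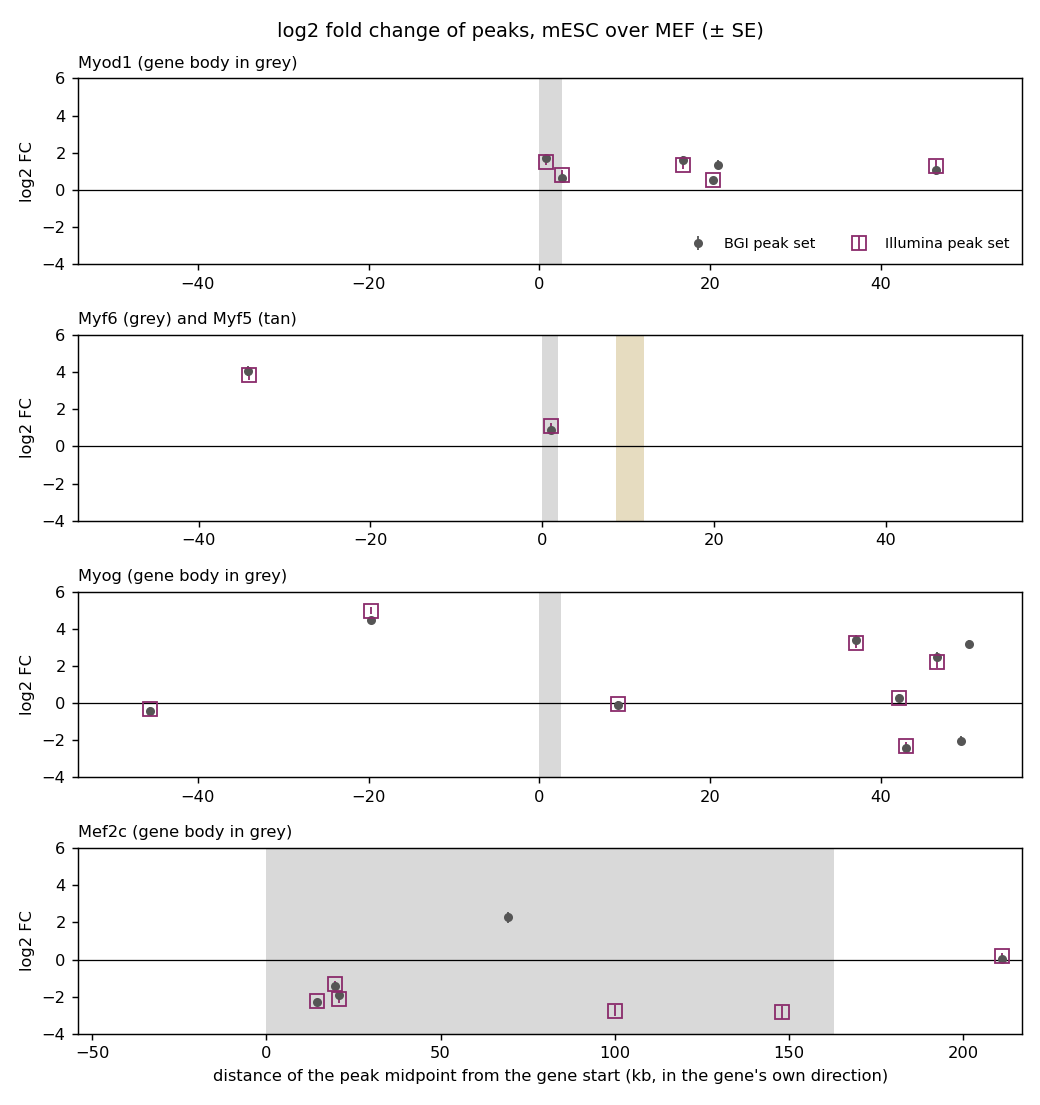
log2 fold change of mESC over MEF (± SE) of every member peak against the distance of its midpoint from the gene start, for the BGI (filled circles) and Illumina (open squares) peak sets; gene bodies are shaded. All points of the Myod1 and Myf6 panels are above 0, and within the Mef2c body 1 peak, in the BGI set alone, is above 0.

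Calls of single samples showed what the peak sets leave out at the start sites. Each sample's MACS2 calls give a summit with the -log10 of its p-value, and the strongest summit within 1 kb of a start was taken. At the Myod1 start all 12 samples had a summit, with -log10 p of 9.16 to 15.1 in the MEF and 41.6 to 52.0 in the mESC samples. At the Myog start, where no peak was listed, all 6 mESC samples had a summit 327 to 504 bp inside the gene, with -log10 p of 9.31 to 26.95 (median 16.4). In MEFs 3 of 6 samples had one, at 2.85 to 4.53. The Myf5 start had a summit in 1 of 6 MEF samples (3.32) and 2 of 6 mESC samples (3.79 and 4.48). Within 1 kb of the Myf6 start, 4 of 6 mESC samples and 0 of 6 MEF samples had a summit, although all 12 had one inside the Myf6 peak as a whole. The most upstream Mef2c start had none in any of the 12 samples. The Mef2c start at 83523473, beside the first MEF-biased promoter peak, had one in all 12, at 53.1 to 91.6 in the MEF and 7.60 to 18.02 in the mESC samples. Inside the second MEF-biased promoter peak itself, all 6 MEF samples had a summit, and not every mESC sample had one. At the mESC-biased promoter all 6 mESC samples (9.25 to 30.3) and 0 of 6 MEF samples had one, and at the most downstream start the reverse held, with all 6 MEF samples (15.1 to 31.0) and 0 of 6 mESC samples. These p-values are the caller's own, per sample, and not a test between cell types.

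**Figure D3:**
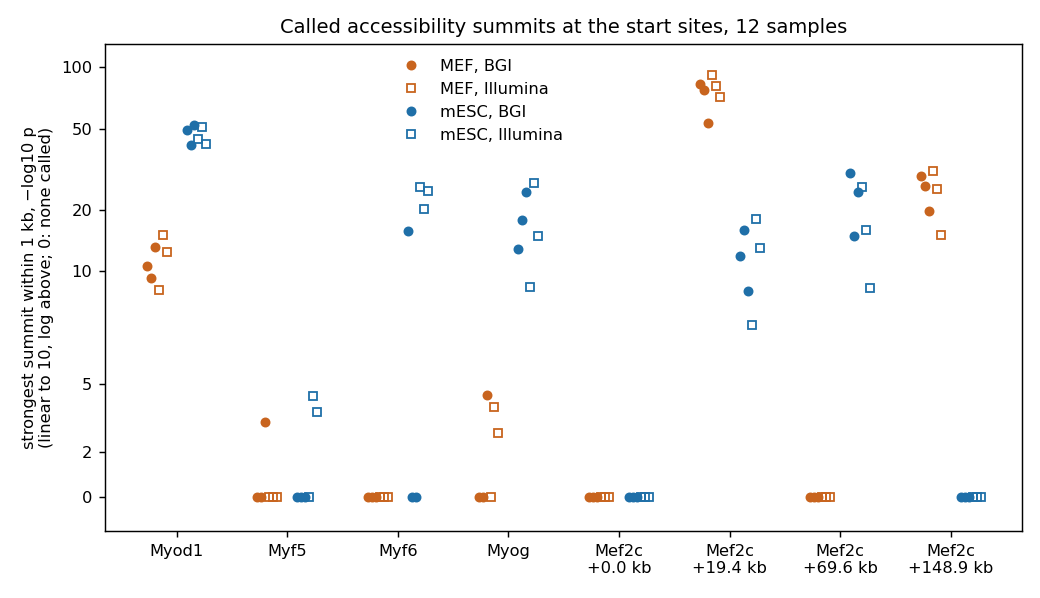
Strongest called summit within 1 kb of a start site (-log10 p, linear to 10 and log above) in each of the 12 samples; Mef2c starts are named by their distance from the most upstream one, and 0 means no summit called. The Myog start has summits in 6 of 6 mESC samples, and the most upstream Mef2c start has none.

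Summits of single samples were also counted over each whole window, keeping the stronger ones. In the Mef2c window, samples had 13 to 18 summits with -log10 p of at least 10 if MEF and 4 to 8 if mESC. In the Myog window these counts were 8 to 10 (MEF) and 12 to 17 (mESC), and in the Myod1 window 3 to 7 and 9 to 13. For Myf5 and Myf6 the ranges overlapped, at 1 to 4 (MEF) and 2 to 5 (mESC). The reproducible lists kept fewer of them: 1 peak of the Myod1 window in MEFs on either platform against 6 (BGI) and 5 (Illumina) in mESCs, and 0 against 2 for Myf5 and Myf6. For Myog they held 5 (BGI) and 4 (Illumina) in MEFs against 7 and 6 in mESCs, and for Mef2c the order was turned, with 4 and 6 in MEFs against 3 and 1 in mESCs. The whole lists held 58813 (BGI) and 55071 (Illumina) peaks in MEFs and 62270 and 60956 in mESCs. Both platforms' MEF samples were down-sampled to more reads than the mESC samples, so depth moves with cell type in these counts, and its part was not tested.

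Both platforms read the same 6 libraries, so they were compared to see whether the choice of sequencer changed the picture at these genes, and not as independent evidence. By overlap of at least 50% of the width, 18 peaks were in both sets, 4 in the BGI set alone and 2 in the Illumina set alone. All 18 had the same call on both: 10 higher in mESCs, 5 lower and 3 not past the threshold. The share over all matched peaks was not computed. Among the 5 is the Myog peak 45.6 kb upstream, whose samples overlapped on Illumina (-0.34, edgeR adjusted p = 0.0363) and whose Illumina call was lost without MEF 4, mESC 1 or mESC 5 (edgeR adjusted p = 0.133, 0.0638 and 0.138). Their log2 fold changes differed between the platforms by a median of 0.16 and by 0.51 at most, at the Myog peak 19.8 kb upstream. In a test of the difference itself on the BGI peak set, 0 of 22 member peaks passed (0.0% of all peaks). At an unadjusted p under 0.05 in edgeR there were 0 of 22, against 2386 of all 91354 peaks. With library as a block, again 0 of 22 passed (0.386% of all peaks). In that fit 1 of 22 had an unadjusted p under 0.05, the Myod1 distal peak (0.40, SE 0.16, edgeR adjusted p = 0.245). Of all 91354 peaks, 12094 had one.

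**Figure D4:**
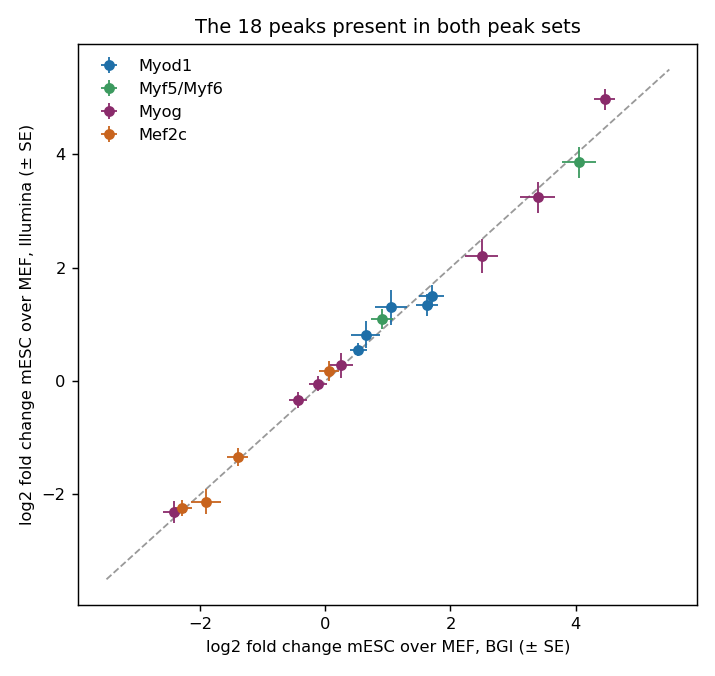
log2 fold change of mESC over MEF on Illumina against BGI (± SE) for the 18 member peaks in both sets, coloured by window; the dashed line marks equal values. The points follow the line from the Ppfia4 promoter peak at -2.41 to the Myog upstream peak at 4.46 on BGI.

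Between platforms within a cell type, 0 of 12 member peaks passed in MEFs (4.06% of all peaks passed) and 0 of 18 in mESCs (3.23%). At an unadjusted p under 0.05 in edgeR there were 0 and 2, and DESeq2 called 0 and 0, with no adjusted p for 3 and 7 of them. Over all peaks, 9398 of 61891 in MEFs and 8756 of 67063 in mESCs had such an unadjusted p. Of all peaks with an adjusted p, DESeq2 called 518 higher and 5396 lower on BGI among 46292 in MEFs. In mESCs it called 33 higher and 2079 lower among 43659. The library numbers pair the samples, and with this block 3 of 12 passed in MEFs (29.2% of all peaks) and 5 of 18 in mESCs (21.3%). The lowest p-value was at the Kcnc1 promoter in the Myod1 window, lower on BGI by -0.30 (SE 0.063, edgeR adjusted p = 1.46e-04) in MEFs and by -0.34 (SE 0.051, edgeR adjusted p = 1.56e-09) in mESCs. The internal Mef2c promoter over the 5′ exon was lower on BGI in MEFs (-0.39, SE 0.10, edgeR adjusted p = 0.00225). The Ppfia4 peak 42.1 kb from Myog was higher on BGI in both MEFs (0.39, edgeR adjusted p = 0.0331) and mESCs (0.36, edgeR adjusted p = 0.0301). In mESCs the neighbouring Kcnc1 promoter peak was lower (-0.38), and the Myog upstream peak (0.14) and the Myod1 distal peak (0.23) were higher on BGI. None of these platform differences reached 0.4 on the log2 scale.

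The cell types were checked by promoter peaks of marker genes. All 6 mESC markers (Pou5f1, Nanog, Esrrb, Sox2, Zfp42 and Epcam) were higher in mESCs, and 5 of 6 MEF markers were lower, with Pdgfra (24.7 CPM in MEFs, 27.3 in mESCs) not past the threshold. Of 6 skeletal muscle markers, Acta1, Myh3 and Mymk had no promoter peak, Tnnt3 and Cdh15 were higher and Ckm was lower in mESCs. The summed CPM of the 3 present was 23.3 to 24.7 over the MEF and 25.8 to 31.2 over the mESC samples. On Illumina, where Ckm was read at another peak and Tnnt3 had none, the sums were 9.34 to 10.04 over the MEF and 25.5 to 32.01 over the mESC samples. Endothelial promoters (3 of 4 with a peak, sums 28.7 to 30.9 and 27.6 to 32.2 CPM) gave no call. Of the blood markers Cd68 alone had a peak, higher in mESCs (8.12 to 14.2 against 49.7 to 57.2 CPM), and neural crest and glial markers had none. The part of other cell types in the member peaks was not tested. Reads in the peak set were 20.1 to 21.7 M per MEF and 15.9 to 16.9 M per mESC sample on BGI.

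Other genes of the myogenic pathway were read at their promoter peak with the highest count. Peaks that also lay within 1 kb of another gene's start were kept, so such a peak need not belong to the named gene alone. Of 48 genes, 36 had a promoter peak on BGI, 11 were higher and 18 lower in mESCs. Among all 15130 protein-coding genes with such a peak, 22.1% were higher and 44.1% lower, with a median log2 fold change of -0.18. Of the 11 upstream factors, 4 were higher, 1 was lower and 2 (Pax7 and Tcf21) had no peak (median 0.31). On Illumina, where 22.5% of 15186 genes were higher and 45.8% lower, 5 were higher and 5 did not pass, and Pax7 had a promoter peak, higher in mESCs by 1.21 (SE 0.20, edgeR adjusted p = 1.68e-05). Six4, a homeobox factor that acts on Myf5 and Myog, read 26.3, 23.9 and 19.5 CPM in MEFs and 37.1, 39.9 and 42.8 in mESCs (0.71, SE 0.12, edgeR adjusted p = 1.89e-05). Lbx1, a homeobox gene of migrating muscle precursors, was higher by 0.70 (SE 0.17), and Eya1, a transcriptional co-activator, was lower (-0.35, SE 0.13, edgeR adjusted p = 0.0150), with no call on Illumina. Of the E protein partners, Tcf3 (-0.61, SE 0.09) and Tcf12 (-0.53, SE 0.15) were lower in mESCs and Tcf4 did not pass.

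Promoters of inhibitors of myogenic factors were lower in mESCs for 5 of 7 genes on BGI and 6 of 7 on Illumina, and higher for 0 (median -0.46 and -0.83). Over all genes with a promoter peak, 44.1% were lower on BGI and 45.8% on Illumina. Twist1, a helix-loop-helix repressor, read 30.3, 35.8 and 34.9 CPM in MEFs and 6.75, 10.2 and 6.77 in mESCs (-2.15, SE 0.15, edgeR adjusted p = 5.14e-10). Id1, which titrates E proteins, read 37.7, 37.7 and 45.6 CPM in MEFs and 13.6, 12.9 and 16.1 in mESCs (-1.57, SE 0.11, edgeR adjusted p = 7.01e-10). Of the MEF2 family and its histone deacetylase repressors, 6 of 7 were lower on BGI (median -0.74), against 44.1% of all genes (median -0.18). The largest decreases on BGI were at Hdac7 (35.1 ± 2.02 against 5.27 ± 0.691 CPM, -2.80, SE 0.13) and Mef2b (-1.02, SE 0.09), while Hdac9 was higher in mESCs (1.54, SE 0.24).

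Of 20 muscle target genes, 10 had a promoter peak, where 68.8% of all protein-coding genes had one on BGI. Of these 10, 6 were higher and 4 lower in mESCs (median 0.51), against the 22.1% and 44.1% over all genes with such a peak. Mymx, which encodes the small myoblast fusion protein myomixer, read 1.98, 2.34 and 3.53 CPM in MEFs and 56.1, 67.3 and 54.05 in mESCs (4.44, SE 0.16, edgeR adjusted p = 3.06e-13). Chrng, the fetal acetylcholine receptor subunit, was higher by 2.22 (SE 0.27). The troponin I genes Tnni1 (17.2 ± 1.57 against 4.498 ± 0.777 CPM, -2.004, SE 0.17) and Tnni2 (22.1 ± 3.01 against 6.19 ± 1.43 CPM, -1.90, SE 0.17) were lower in mESCs. For 7 of the 48 genes another promoter peak had the highest count on Illumina, and the value moved with the peak. At Ckm the call turned from lower (-0.57) to higher (1.98). Hdac7 read -0.996 and Mef2a -1.39 on Illumina, against -2.80 and -0.74 on BGI. Lbx1 read 1.55 on Illumina and Hdac9 read 1.22. Mdfi was lower on Illumina (-1.22) and not called on BGI (-0.32), and Tbx1 was not called on either (0.09 on BGI, -0.21 on Illumina).

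**Figure D5:**
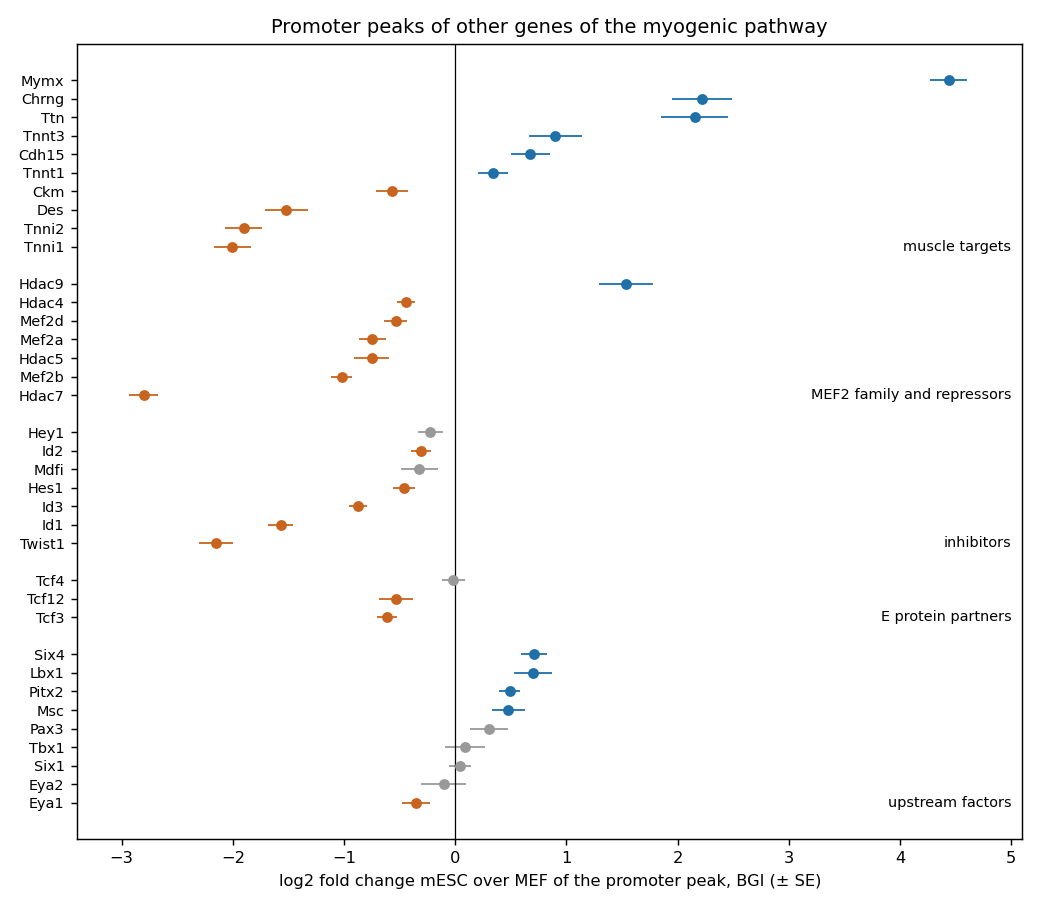
log2 fold change of mESC over MEF (± SE) of the promoter peak with the highest count on BGI for the 36 pathway genes that had one; blue is higher and orange lower in mESCs at an adjusted p under 0.05, and grey did not pass. All inhibitors lie below 0, and Mymx is farthest to the right at 4.44.

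Genes whose promoter peak was most like a member's were found by Euclidean distance in log2 CPM over the 6 BGI samples. For the Myod1 promoter these were Foxp1, Gad1 and Tns2 (distances 0.18, 0.23 and 0.23), and for Myf6 they were Smim10l2a, Camkv and Ankdd1a (0.12, 0.18 and 0.19). For the Mef2c promoter peak near 83523570 they were Dab2ip, Ldlrad3 and Zfp787 (0.15, 0.18 and 0.20). Of 25905 promoter peaks, 99 lay within 0.5 of the Myod1 peak, 139 of the Myf6 peak and 62 of this Mef2c peak. The other two Mef2c promoter peaks on BGI had fewer, 18 for the one over the internal 5′ exon and 13 for the mESC-biased one.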

How the data were processed

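Omni-ATAC-seq of 6 libraries was read on 2 instruments. The authors trimmed Illumina reads to the BGI read length, used Bowtie2 with GRCm38 (mm10), took out duplicate and mitochondrial alignments, and down-sampled to 1 depth per cell type. They called peaks per sample with MACS2, whose deposited files give a fold enrichment ratio and the -log10 of a p-value. Lists of reproducible peaks were used as positions only. The deposited tables hold raw counts per peak, made by the authors with subread. Columns without a platform name were taken as Illumina, checked by the correlation of count ratios with enrichment ratios (Spearman rho 0.772 to 0.817 across peaks).

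The tests used edgeR 4.0.16 (TMM, filterByExpr, quasi-likelihood F, two-sided) on whole tables, with Benjamini-Hochberg adjustment, a threshold of 0.05, and SE as the log2 fold change over the root of F. DESeq2 1.42.0, RLE factors, fixed library sizes (60 M and 45 M reads), no filter, a minimum mean count of 50, a fold threshold, the other platform's samples, left-out libraries and a library block were alternatives. Same-library samples correlated between platforms after removal of group means (r = 0.515 to 0.837, others -0.676 to 0.293), and the labels give both samples the same library, so the numbers pair them. No sample pair had identical counts. Genes and starts were from GENCODE M21, and a promoter peak lay within 1 kb of a start. Likeness added 0.5 CPM before the log. Named were promoter peaks of members, the 3 lowest p-values per window and direction on BGI, the highest peak per window, and the 2 largest changes per direction of each gene list. The fits were run on simulated counts with known changes. These counts held no library effect, so they do not check the library block. Members and lists were chosen with earlier results of these data known.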

Additional observations from a re-analysis of the deposited data

Results flagged for a closer look

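Summits called at the Myog start site lie outside the peak sets that the comparisons use. All 6 mESC samples had one, with a median -log10 p of 16.4, while 3 of 6 MEF samples had one, with a median of 4.004. This was read from the per-sample calls and was not tested between the cell types.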

How the results depend on the processing

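The counts of member peaks higher or lower in mESCs stayed within 1.5 times of those reported under DESeq2, RLE factors, fixed library sizes, no filter, a mean count of at least 50 and the samples of the other platform. Requiring a log2 fold change of at least 1 left 6 of 20 Illumina peaks higher in mESCs in place of 10. Of all Illumina peaks 26795 of 87027 were called higher in mESCs at that threshold, so the members' share no longer exceeded the background. With 1 library left out at a time, the BGI counts were 12 to 13 higher and 6 lower, and the Illumina counts 10 higher and 6 to 7 lower. Without mESC 5, the peak at the 3′ end of Myod1 lost its BGI call (0.48, edgeR adjusted p = 0.118). The Myog peak 45.6 kb upstream lost its Illumina call without MEF 4, mESC 1 or mESC 5 (edgeR adjusted p = 0.133, 0.0638 and 0.138). Of 546 single values under the alternatives, 527 kept direction and side, 16 lost the call (10 of them under the fold threshold) and 3 changed sign, all at peaks that were not called: the peak 9.21 kb from Myog turned to 0.0256 on BGI and 0.0771 on Illumina with fixed library sizes, and the Mef2c distal peak to -0.00575 on Illumina with the other platform's samples. Fixed library sizes moved the median of all peaks by 0.14 on BGI and 0.13 on Illumina. Pairing by the replicate block raised the platform calls from 0 to 3 in MEFs and from 0 to 5 in mESCs, and left the interaction at 0. Leaving out 1 library at a time gave 0 to 1 platform calls in MEFs (1 without MEF 4), 0 in mESCs and 0 for the interaction. Of all 61891 MEF peaks, 370 were higher and 5762 lower on BGI without MEF 4, and 0 were called without MEF 1 or MEF 2. Of all 67063 mESC peaks, 1 was higher without mESC 1, 13 were higher and 1360 lower without mESC 3, and 0 were called without mESC 5. The interaction gave 0 calls over all peaks in each of these fits. The interaction's all-peak median was 0.11, and -0.01 with RLE factors.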
